A study of Mus musculus with 4 samples.

Results

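A pair of miRNA clusters that mark mesenchymal cells was read in mouse embryonic fibroblasts (MEFs) with and without JUNB, which is part of the dimeric transcription factor AP-1. The smooth muscle cluster comprises mmu-miR-143 and mmu-miR-145, and the Dnm3os cluster comprises mmu-miR-199a and mmu-miR-214. Names on the array equal to one of these 4 names, with or without an arm (5p or 3p) at the end, were taken and star strands were left out. This gave 5 of the 710 miRNA names on the array, namely miR-143, miR-145, miR-199a-5p, miR-199a-3p and miR-214.

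The MEFs were 2 Junb knock-out clones (Junb-/-) and 2 Junb wildtype clones (wt), all of C57BL/6 × 129/Sv background. They had been derived from embryos at embryonic day 9.5, made permanent by the 3T3 passaging scheme, and grown in medium with 10% fetal calf serum at 37 °C under 8% CO2. Total RNA of each clone was put on 1 single-colour Febit array, on which a bound miRNA primes an enzymatic extension with biotin that is stained with streptavidin-phycoerythrin. No source used here says if clones of a genotype go back to different embryos, so that p-values measure the spread between these clones. The array holds no probe for Junb mRNA, and the genotypes were taken from the labels.

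miR-143 and miR-145 are processed from a single host transcript and are best known from vascular smooth muscle, where serum response factor and myocardin drive them and where they favour the contractile state. They are also made by fibroblasts and myofibroblasts. miR-199a-5p and miR-199a-3p are the strands of one hairpin which, together with that of miR-214, is cut from the long non-coding RNA Dnm3os, a transcript of embryonic mesenchyme that the factor TWIST1 activates.

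In the RefSeq annotation of GRCm38, Mir199a-2 and Mir214 neighbour each other within Dnm3os on chromosome 1, which itself lies within the span of the dynamin gene Dnm3. A further copy, Mir199a-1, lies within Dnm2 on chromosome 9, and the related Mir199b lies within Dnm1 on chromosome 2, so that each of the miR-199 genes sits in a dynamin gene. Mature sequences from RefSeq (GRCm38.p6) were matched for 3 of the 5 miRNAs, with miR-214 taken as miR-214-3p, its later name. They are shown with those of strands that share their bases, because these decide which array values can be told apart. Capitals mark the seed, bases 2 to 8, which pairs with target mRNAs.
miR-199a-5p: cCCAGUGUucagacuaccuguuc
miR-199a-3p: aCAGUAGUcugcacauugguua
miR-199b-3p: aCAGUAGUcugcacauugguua
miR-214-3p: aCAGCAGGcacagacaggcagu
miR-214-5p: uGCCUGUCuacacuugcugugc
miR-761: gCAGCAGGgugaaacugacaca

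miR-199a-5p lies at chr1:162217844-162217866 and miR-199a-3p at chr1:162217883-162217904, both on the plus strand, and the same strands lie at chr9:21496537-21496559 and chr9:21496498-21496519 on the minus strand. miR-199a from both genes is identical, so that its array value cannot be assigned to Dnm3os alone. miR-199b-3p, at chr2:32318524-32318545 on the plus strand, is identical to miR-199a-3p in 22 of 22 bases. miR-214-3p lies at chr1:162223438-162223459 and miR-214-5p at chr1:162223397-162223418, both on the plus strand. Of 1679 mature names in the RefSeq table, only miR-761 (chr4:109017669-109017690, plus strand) shares the seed of miR-214-3p. No other name in that table has the seed of miR-199a-5p. The sequence of miR-199b*, the star strand of Mir199b, was not matched, and whether it shares this seed was not tested. Whether its array value can be told apart from that of miR-199a-5p was not tested.

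The window from 250 bases before to 50 bases after the start of Dnm3os holds 1 CArG box, the site of serum response factor, which is found in 1.63% of 32851 such windows of mouse genes. It is shown in capitals from the plus strand of chr1:162217580-162217609, and it begins 33 bases before the start.
Dnm3os: tgacatcatcCCATATATGGactctccagc
The AP-1 site TGANTCA, read on both strands, has 0 matches in that window and is found in 7.81% of all windows. A match of letters is no measurement of binding, and 0 matches say only that these letters are not in the window. No match was looked up for Carmn, the host gene of miR-143 and miR-145, so that the clusters are not compared here.

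Between 5167 and 5361 of 5680 spots per array had a value. Over all spots of an array, the median was 84.0 and 110.1 for the Junb-/- clones and 33.6 and 105.6 for the wt clones, so that the array of wt clone 1 was the dimmest. Each miRNA name has 8 spots. The normalized log2 level of a miRNA is the average over its spots of log2(intensity + 50) after quantile normalization across the arrays. Of the 710 miRNAs, 10 (1.41%) passed limma at an adjusted p under 0.05, 4 higher (0.563%) and 6 lower (0.845%) in Junb-/- MEFs. With the further scalings the split was 2 and 7 (floor of 16 after median scaling), 10 and 19 (cyclic loess) and 0 and 0 (median or 75th percentile scaling). Of 8 fibroblast markers, none passed limma and the median log2 fold change was 0.12. An unadjusted p under 0.05 was found for 2 of them, miR-100 and miR-199b, and for 10.4% of all miRNAs, and the list is not separate from the 5 miRNAs since the 3p strand of miR-199b equals miR-199a-3p. The summed spot medians of the list were 21518 and 41947 in the Junb-/- clones and 23176 and 28444 in the wt clones. Those of the endothelial miR-126 strands were 41.9 and 224.6 in the Junb-/- clones and 35.5 and 149.1 in the wt clones. For 7 skeletal and cardiac muscle markers they were 706.2 and 408.9 in the Junb-/- clones and 218.1 and 384.8 in the wt clones. For 4 neuronal markers they were 250.1 and 838 in the Junb-/- clones and 244.4 and 1019.2 in the wt clones. In the fibroblast list miR-10a and miR-10b were dim, with spot medians of 62.4 to 97 and 8.9 to 32. In the 7 marker lists of other cell types no miRNA passed limma or had an unadjusted p under 0.05. The part of other cells in the results was not tested.

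None of the 5 miRNAs passed limma when adjusted over all miRNAs, of which 1.41% did, while 4 had an unadjusted p under 0.05, which 10.4% of all miRNAs had. For the same 4, the clones of one genotype lay entirely on one side of those of the other, which held for 38.6% of all miRNAs. The direction differed between the clusters. Both Junb-/- clones lay below both wt clones for miR-143 and miR-145 (17.3% of all miRNAs), and above them for miR-199a-3p and miR-214 (21.3% of all miRNAs). The median size of the log2 fold change, whatever its sign, was 1.02 over the 5 miRNAs and 0.30 over all miRNAs. All 5 were bright, whereas only 311 of the 710 miRNAs had a mean spot median of at least 100. The offset of 50 compresses differences of dim miRNAs, so that the medians are not of like miRNAs. In a limma fit of those 311 alone, 64 had an unadjusted p under 0.05.

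miR-143, whose targets include regulators of the actin cytoskeleton, had spot medians of 1230.4 and 5133 in Junb-/- clones 1 and 2, and of 4821 and 7839 in wt clones 1 and 2. Its normalized log2 level was 10.66 and 11.76 in the Junb-/- clones and 12.16 and 12.98 in the wt clones. The Junb-/- clones were the lowest of the 4 after normalization, whereas in the intensities as deposited Junb-/- clone 2 lay above the dim array of wt clone 1. The means were 11.21 ± 0.78 in Junb-/- and 12.57 ± 0.58 in wt MEFs (SD, n = 2 clones each). The log2 fold change was -1.36 (standard error 0.43, limma 95% interval from -2.29 to -0.43, adjusted p = 0.184), a 2.57-fold lower level. Only 9 miRNAs of the array had a lower log2 fold change. Its gene and that of miR-145, Mir143 and Mir145a, neighbour each other within the long non-coding RNA gene Carmn on chromosome 18 (RefSeq, GRCm38).

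miR-145, which represses KLF4 and KLF5 and is enriched in contractile smooth muscle, had spot medians (linear intensity) of 570.4 and 1725.9 in the Junb-/- clones and of 1669.9 and 2215.9 in the wt clones. Its normalized log2 level was 9.35 and 10.64 in the Junb-/- clones and 10.80 and 11.23 in the wt clones. The gap between Junb-/- clone 2 and wt clone 1 was only -0.16, against -1.88 between Junb-/- clone 1 and wt clone 2. In the intensities as deposited, Junb-/- clone 2 lay above the dim array of wt clone 1, as for miR-143. The means were 9.99 ± 0.91 in Junb-/- and 11.01 ± 0.30 in wt MEFs (SD, n = 2 clones each). This is a log2 fold change of -1.02 (limma 95% interval from -1.95 to -0.09, standard error 0.43, adjusted p = 0.414). The order of the clones was the same for miR-143 and miR-145, with Junb-/- clone 1 the lowest and wt clone 2 the highest, whereas in the values normalized by the authors wt clone 1 was the highest for both (13.69 against 13.23 in wt clone 2 for miR-143, and 12.16 against 11.41 for miR-145).

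The size of both differences depended on the clones kept. Without Junb-/- clone 1 the log2 fold change was -0.83 for miR-143 (adjusted p = 0.999 from limma) and -0.39 for miR-145 (adjusted p = 0.999), and without Junb-/- clone 2 it was -1.89 (adjusted p = 0.0283) and -1.66 (adjusted p = 0.0726). Without wt clone 1 it was -1.71 for miR-143 and -1.17 for miR-145, and without wt clone 2 it was -0.96 (adjusted p = 0.504) and -0.86 (adjusted p = 0.61). In these fits the lone clone is assumed to vary like the other genotype. The spots of one array, which are technical repeats, gave a difference below 0 at 7 of 7 spots of miR-143 measured on all arrays, from -1.75 to -1.12, and at 8 of 8 spots of miR-145, from -1.54 to -0.34. At 4 spots of each, both Junb-/- clones lay below both wt clones.

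**Figure D1:**
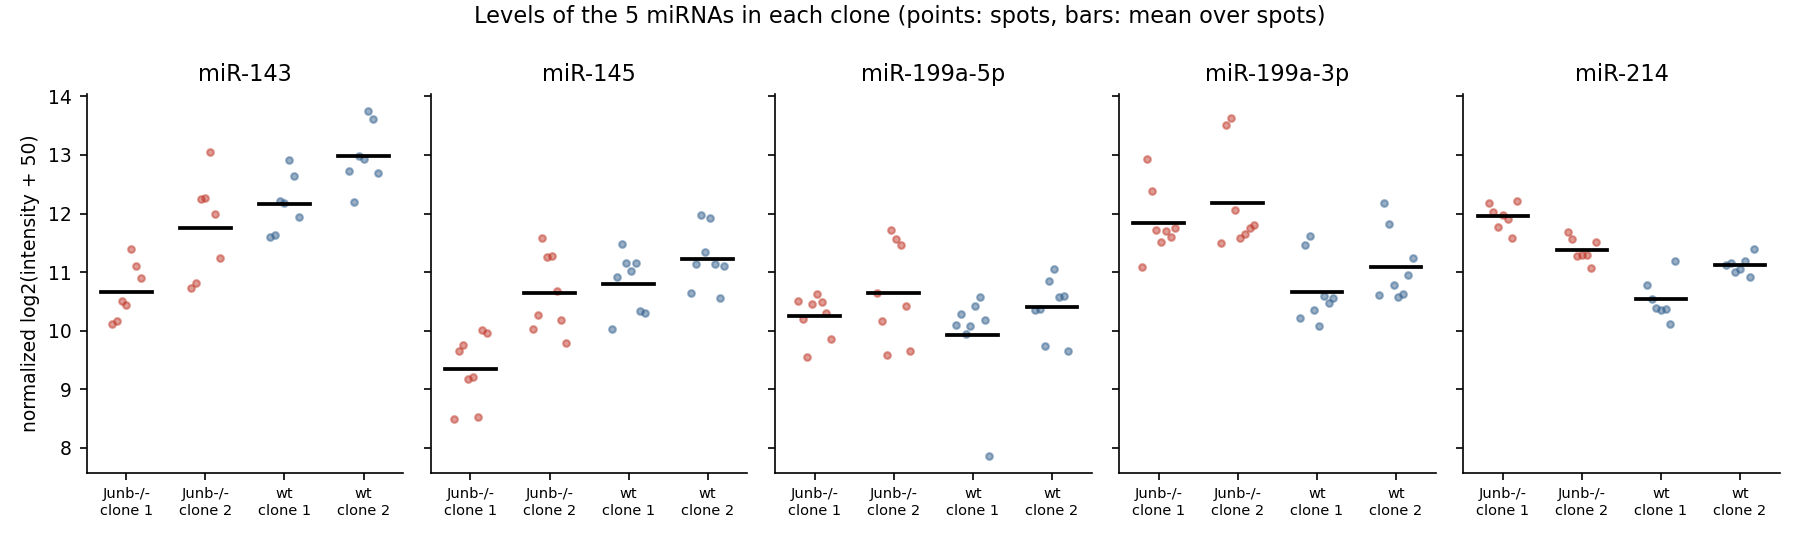
Normalized log2(intensity + 50) of the 5 miRNAs, with 1 panel each and the Junb-/- clones (red) left of the wt clones (blue). Points are spots and bars the mean over the spots of a clone. The bars of miR-143 are at 10.66 and 11.76 in the Junb-/- clones and at 12.16 and 12.98 in the wt clones, whereas those of miR-199a-3p are at 11.83 and 12.19 in the Junb-/- clones and at 10.67 and 11.09 in the wt clones.

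miR-145*, the other strand of the miR-145 hairpin, did not share the pattern of miR-145 by clone. Its normalized log2 level was 6.54 and 7.58 in the Junb-/- clones and 7.27 and 7.09 in the wt clones, so that the highest and the lowest clone were both Junb-/-. The log2 fold change was -0.13 (limma 95% interval from -0.99 to 0.73, adjusted p = 0.941). With spot medians of 8.00 and 300.0 in the Junb-/- clones and 40.8 and 121.0 in the wt clones, it lay in the range where the offset of 50 compresses differences. Whether it differs from that of miR-145 was not tested.

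Among the strands of the Dnm3os cluster, miR-199a-3p, which in human liver cancer cells was found to repress MET and MTOR, had spot medians (linear intensity) of 2727.1 and 4448.5 in the Junb-/- clones and of 1221.8 and 1864.2 in the wt clones. Its normalized log2 level was 11.83 and 12.19 in the Junb-/- clones and 10.67 and 11.09 in the wt clones. The genotypes did not overlap on either scale, and the Junb-/- clones differed from each other by less than from any wt clone. The means were 12.01 ± 0.25 in Junb-/- and 10.88 ± 0.30 in wt MEFs (SD, n = 2 clones each). The log2 fold change was 1.13 (standard error 0.36, limma 95% interval from 0.35 to 1.90, adjusted p = 0.184), a 2.19-fold higher level. Only 17 miRNAs had a higher log2 fold change. At 8 of 8 spots both Junb-/- clones lay above both wt clones, with differences from 0.88 to 1.40.

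miR-214, which represses the histone methyltransferase EZH2 in mouse muscle cells, had spot medians (linear intensity) of 3077 and 3220.8 in the Junb-/- clones and of 1112.8 and 2186.4 in the wt clones. Its normalized log2 level was 11.95 and 11.39 in the Junb-/- clones and 10.54 and 11.12 in the wt clones. Here Junb-/- clone 1 was the highest, in contrast to miR-199a-3p, and the gap between Junb-/- clone 2 and wt clone 2 was 0.27. The means were 11.67 ± 0.40 in Junb-/- and 10.83 ± 0.41 in wt MEFs (SD, n = 2 clones each), a log2 fold change of 0.84 (standard error 0.38, limma 95% interval from 0.03 to 1.65, adjusted p = 0.450). All 7 spots measured on all arrays had both Junb-/- clones above both wt clones, with differences from 0.57 to 0.99. Without wt clone 1 the log2 fold change was 0.52 and without Junb-/- clone 1 it was 0.57.

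miR-199a-5p, the opposite strand of the miR-199a-3p hairpin and a repressor of caveolin-1 in human lung fibroblasts, had spot medians (linear intensity) of 1134.8 and 1766.4 in the Junb-/- clones and of 980.1 and 1493.2 in the wt clones. Its normalized log2 level was 10.25 and 10.65 in the Junb-/- clones and 9.93 and 10.40 in the wt clones. The genotypes overlapped, and the means were 10.45 ± 0.28 in Junb-/- and 10.16 ± 0.33 in wt MEFs (SD, n = 2 clones each). The log2 fold change was 0.29 (standard error 0.36, limma 95% interval from -0.50 to 1.07, adjusted p = 0.886), and its sign turned with median scaling (-0.23), 75th percentile scaling (-0.07), the floor of 16 (-0.23) and the values normalized by the authors (-0.14). The spots differed in sign as well, with 5 of 8 above 0, and the lowest spot of wt clone 1 had an intensity of 75.2 beside the median of 980.1. The strands of this hairpin thus had log2 fold changes of 0.29 and 1.13, with intervals that overlap.

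miR-199b, miR-199b* and miR-214* differed in the same direction as miR-199a-3p and miR-214, and miR-761 in the other. miR-199b, for which the array gives no arm, had a normalized log2 level of 11.71 and 12.21 in the Junb-/- clones and 10.70 and 11.17 in the wt clones (log2 fold change 1.03, adjusted p = 0.296 from limma). As its 3p strand and miR-199a-3p are the same sequence, these are not independent measurements. miR-199b* had levels of 8.23 and 8.58 in the Junb-/- clones and 6.97 and 7.53 in the wt clones (log2 fold change 1.15, adjusted p = 0.184), and miR-214*, the other strand of Mir214, had levels of 9.58 and 10.05 in the Junb-/- clones and 8.86 and 9.20 in the wt clones (log2 fold change 0.79, adjusted p = 0.462). None of the 3 passed limma. Each had an unadjusted p under 0.05, as had 10.4% of all miRNAs, and in each the Junb-/- clones lay above the wt clones, as in 21.3% of all miRNAs. The spot medians of miR-199b* were 321.3 and 643.2 in the Junb-/- clones and 31.6 and 180.0 in the wt clones. That of wt clone 1 lay below the offset of 50. At 4 of 6 spots of miR-199b* measured on all arrays, both Junb-/- clones lay above both wt clones. miR-761, which shares only the seed of miR-214, had levels of 8.34 and 8.49 in the Junb-/- clones and 8.58 and 9.18 in the wt clones (log2 fold change -0.46, adjusted p = 0.738). Its Junb-/- clones lay below the wt clones, as in 17.3% of all miRNAs.

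**Figure D2:**
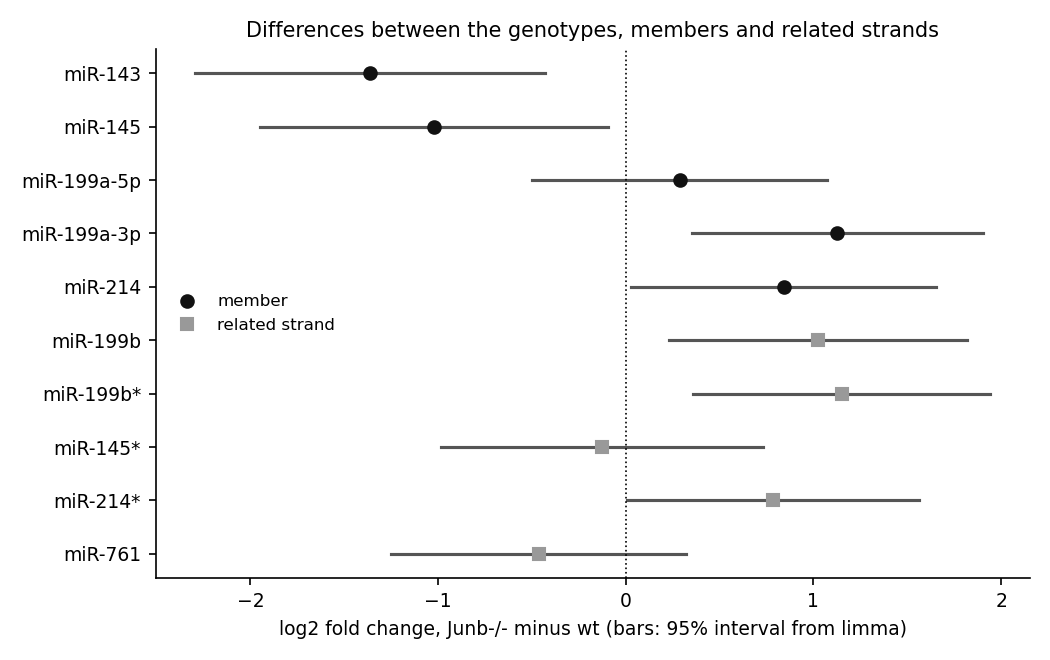
Log2 fold change of Junb-/- minus wt MEFs on the horizontal axis for the 5 miRNAs (black circles) and 5 related strands (grey squares), with the 95% interval from limma as bars. miR-143 (-1.36) and miR-145 (-1.02) lie left of 0. Right of it lie miR-199a-3p (1.13), miR-214 (0.84), miR-199b (1.03), miR-199b* (1.15) and miR-214* (0.79). The intervals of miR-761 (-0.46), miR-145* (-0.13) and miR-199a-5p (0.29) span 0.

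To set the clusters against each other by clone, the level of each miRNA was expressed as a deviation from its own mean over the 4 clones and averaged over a cluster, so that no probe is compared with another. The smooth muscle cluster deviated by -1.19 and 0.00 in Junb-/- clones 1 and 2 and by 0.28 and 0.91 in wt clones 1 and 2. The Junb-/- clones thus differed from each other by -1.19 (clone 1 minus clone 2), as much as the genotype means did (-1.19). The Dnm3os cluster deviated by 0.35 and 0.41 in the Junb-/- clones and by -0.62 and -0.13 in the wt clones, with a difference of 0.75 between the genotypes. Clone 1 minus clone 2 was -0.06 in Junb-/- and -0.49 in wt MEFs. The small value in Junb-/- is an average over opposite signs, with -0.40 for miR-199a-5p, -0.35 for miR-199a-3p and 0.57 for miR-214.

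Within each clone, the smooth muscle cluster minus the Dnm3os cluster was -1.54 and -0.41 in the Junb-/- clones and 0.91 and 1.04 in the wt clones. The mean was -0.97 ± 0.80 in Junb-/- and 0.97 ± 0.09 in wt MEFs (SD, n = 2 clones each), a difference of -1.94 on the log2 scale beside a pooled SD of 0.57. Over the 4 pairings of a Junb-/- with a wt clone it ran from -2.58 to -1.31, the smaller values being those with Junb-/- clone 2. With 2 against 2 clones an exact two-sided permutation test cannot go below 0.333, and the miRNAs had been chosen with results of these arrays known, so no p is given. A factor shared by the miRNAs of an array largely cancels in such a difference by construction, so that its narrow range under other processing (-1.98 to -1.87 with all clones kept) is no sign of stability. Leaving out Junb-/- clone 1 or 2 gave -1.41 or -2.49. In bulk RNA, fewer cells of a kind and less miRNA per cell cannot be told apart.

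**Figure D3:**
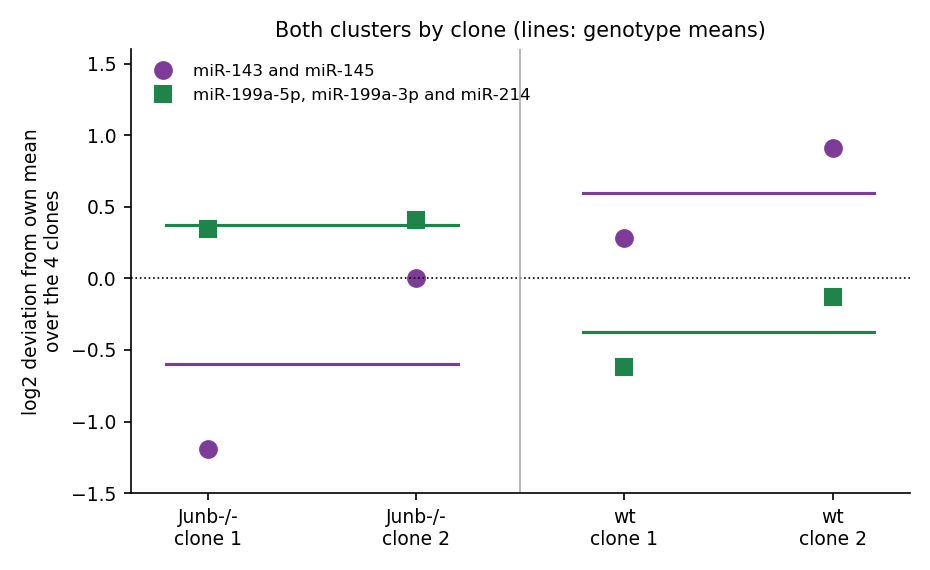
Mean log2 deviation of the smooth muscle cluster (purple circles) and of the Dnm3os cluster (green squares) in each clone, the Junb-/- clones left of the wt clones and horizontal lines for genotype means. The smooth muscle cluster lies below the Dnm3os cluster in both Junb-/- clones (by -1.54 and -0.41) and above it in both wt clones (by 0.91 and 1.04).

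Median scaling shifted the log2 fold changes of all 5 miRNAs downward. With it the log2 fold change was -1.91 for miR-143 and -1.52 for miR-145, and 0.51 for miR-199a-3p and 0.26 for miR-214, and the genotypes overlapped for miR-199a-3p and miR-214. The floor of 16 and 75th percentile scaling gave such an overlap too. Over 9 other ways of processing the 4 arrays, the Junb-/- clones of miR-143 and of miR-145 lay below the wt clones in 8, and those of miR-199a-3p and of miR-214 lay above them in 6. The values normalized by the authors were 10.96 and 12.65 in the Junb-/- clones and 13.69 and 13.23 in the wt clones for miR-143, and 12.10 and 12.44 in the Junb-/- clones and 11.72 and 11.16 in the wt clones for miR-199a-3p.

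**Figure D4:**
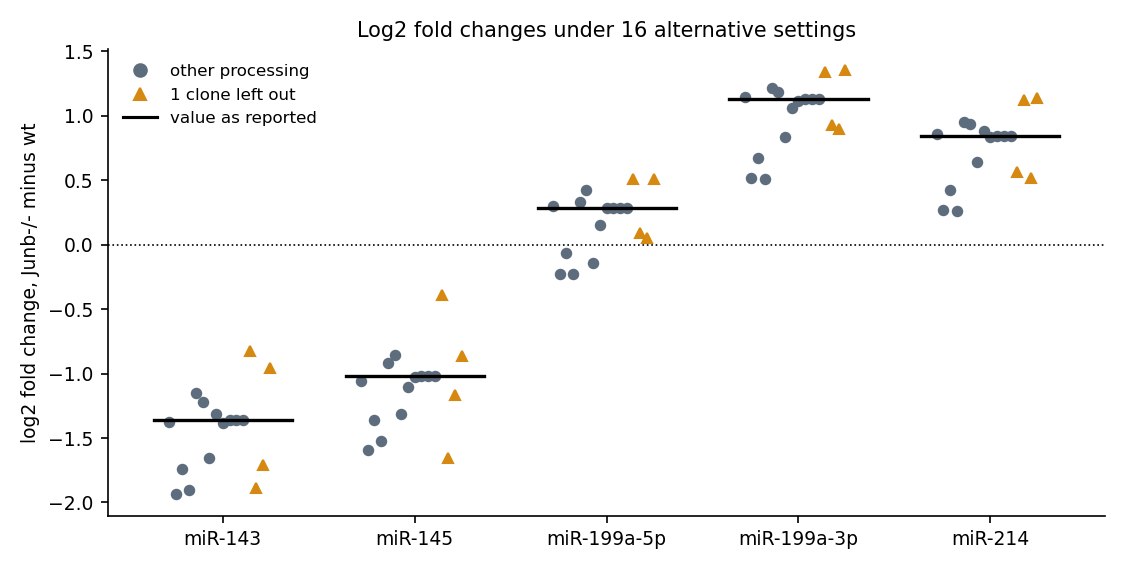
Log2 fold change of Junb-/- minus wt MEFs of each miRNA under 16 alternative settings, with grey circles for other processing, orange triangles for fits with a clone left out and black bars for the reported value. All points of miR-143 and miR-145 lie below 0 (up to -0.83 and -0.39), all of miR-199a-3p and miR-214 above 0 (down to 0.51 and 0.26), and those of miR-199a-5p on both sides (from -0.23 to 0.51).

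Other miRNAs linked to these pathways were read from 2 lists. Both were drawn up with earlier results of these data known, so that their counts cannot be read as enrichment. Of 11 miRNAs known to act on the smooth muscle phenotype, 1 was higher in Junb-/- MEFs (miR-204, log2 fold change 2.35, adjusted p = 0.00738 from limma), 1 was lower (miR-31, -2.69, adjusted p = 0.00562) and 9 did not pass, where 0.563% of all miRNAs were higher and 0.845% lower. The median log2 fold change of the list was 0.03, against 0.04 over all miRNAs. Among those 9, the smallest p-values were those of miR-146a, an inhibitor of inflammatory signalling (0.73, adjusted p = 0.625), miR-24 (-0.51, adjusted p = 0.738) and miR-1, a muscle miRNA (0.55, adjusted p = 0.738). miR-21, which is raised in injured rat arteries, had a log2 fold change of 0.05. Of 8 miRNAs tied to TGF-beta signalling and fibrosis, none passed limma and 1 had an unadjusted p under 0.05, near the 10.4% of all miRNAs. This was miR-30c with 0.99 (adjusted p = 0.301), followed by miR-155 with 0.75 (adjusted p = 0.531) and miR-29c, a repressor of collagen mRNAs, with -0.50 (adjusted p = 0.738). The median of that list was -0.16, against 0.04 over all miRNAs.

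The patterns over the 4 clones nearest to those of the clusters were looked up by the Euclidean distance between deviations from the mean among 705 other miRNAs. Nearest to the smooth muscle cluster were miR-669j (distance 0.18), miR-17* (0.27) and miR-713 (0.29), beside a median distance of 1.66. Nearest to the Dnm3os cluster were miR-365 (0.14), miR-466a-5p (0.17) and miR-1968 (0.18), beside a median of 1.00. miR-669j, for example, had levels of 8.09 and 9.15 in the Junb-/- clones and 9.35 and 9.96 in the wt clones (log2 fold change -1.03, adjusted p = 0.366 from limma), and miR-365 had 7.83 and 7.89 in the Junb-/- clones and 7.04 and 7.40 in the wt clones (0.64, adjusted p = 0.612). With only 4 arrays such likeness describes these arrays alone.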

How the data were processed

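Per the labels and the file headers, the authors deposited 1 linear intensity per spot for each of the 4 arrays, with 8 spots per miRNA name, blank cells where a spot had no value and no background, flag or control column. No source used here names the scanner, the image analysis or a background step. Intensities were never negative and 2.17% to 8.81% were exactly 0, so they were taken as background-corrected and no detection call was made. The authors also deposited 1 normalized log2 value per miRNA and array, whose columns had medians of 7.07 and 6.94 (Junb-/-) and 6.69 and 6.94 (wt). These rose with the spot medians (Spearman correlation 1 over the miRNAs, which are no independent replicates, with a slope of 0.99 to 1.00 above an intensity of 500), so that scale and direction are known and the normalization is not.

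log2(intensity + 50) was quantile-normalized over arrays, averaged over spots and tested over all 710 miRNAs with limma 3.58.1 (lmFit, eBayes, R 4.3.3), two-sided, with Benjamini-Hochberg adjustment and 0.05 as the threshold. The design asked for normexp only where a background is given. The fit had 2 residual and 11.8 prior degrees of freedom. Fold changes are on the log2(intensity + 50) scale and understate those of dim miRNAs. Steps were tested on simulated data. Figures used matplotlib 3.10.9 (Python 3.11.15). The number of arrays limits the precision.

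The miRNAs, lists and tests were chosen with earlier results of these data known. Named are the 5 miRNAs, their star strands and miR-199b, list members past the threshold and the 3 with the smallest p that did not pass, and the 3 nearest patterns per cluster. miR-761 and miR-21 were added after values were seen. Alternatives are given with their effect in the closing section. A slide block was not run, since no slide is named.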

Additional observations from a re-analysis of the deposited data

How the results depend on the processing

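The difference between the clusters was -2.49 to -1.41 with a clone left out. The other alternatives bear little on it, since array scaling largely cancels in it and the filter on dim miRNAs, the trend and robust settings and the replicate block cannot change it. miR-145 and miR-214 kept their sign and missed the threshold under all 16, with -1.66 to -0.39 and 0.52 to 1.14 when a clone was left out. miR-143 passed with trend and robust settings (-1.36, adjusted p = 1.57e-04 from limma), with the clone number as a replicate block (-1.36, adjusted p = 0.0293) and without Junb-/- clone 2, with a range of -1.89 to -0.83 over the fits that lack a clone. miR-199a-3p passed with cyclic loess (1.22, adjusted p = 0.0426 from limma) and with trend and robust settings (1.13, adjusted p = 0.00767). Over the fits that lack a clone its log2 fold change ran from 0.89 to 1.35. Prior degrees of freedom were infinite with trend and robust settings and without Junb-/- clone 1 or 2, and 721 with cyclic loess. The variance there came almost wholly from all miRNAs, so that those p-values do not measure the spread between the clones of a miRNA. The adjusted p from limma over all alternatives ran from 1.57e-04 to 0.999 for miR-143 and from 0.00767 to 0.882 for miR-199a-3p. miR-199a-5p turned its sign with the floor of 16 (-0.23), 75th percentile scaling (-0.068), median scaling (-0.23) and the authors' values (-0.14), and was 0.05 to 0.51 in the fits that lack a clone. The count of calls over all miRNAs was 10, and 0 with 75th percentile scaling, median scaling, no normalization and the median over spots (31 to 75 with an unadjusted p under 0.05), 29 with cyclic loess, 4 with the authors' values (2 higher and 2 lower), 17 with trend and robust settings, 16 with the replicate block (6 higher and 10 lower) and 7 to 16 with a clone left out, the 16 being without wt clone 1. The cause was not tested. The median log2 fold change of all miRNAs was 0.23 without normalization and -0.14 with the floor of 16, against 0.04 in the fit reported. Deviations of clones with the same number had a correlation of 0.31 across miRNAs. The study's text speaks of clone pairs but not of what clones of a pair share. As 2 pairs cannot settle the matter, the fit reported has no pairing. The array offers no negative control, so depth limits cannot be set for dim strands such as miR-145*.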
